A study of Mus musculus with 75 samples.

Results

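Epididymal white fat of mice that carry the C57 nuclear genome was compared between mtDNA of C3H origin (C57n:C3Hmt, 3 libraries) and the C57 wild type (C57n:C57mt, strain C57BL6/J, 4 libraries), all on a high-fat diet. Members were chosen by their labelled genotype, diet and tissue, which gave 7 of the 75 libraries of the series. The study made mitochondrial-nuclear exchange mice from the C57BL6/J and C3H/HeN strains and asked whether the origin of the mtDNA alters fatness and fat transcripts when the diet changes. All mice were weaned on chow, and those used here received the high-fat diet from week 6 to week 12 or 13 of age. By label both groups therefore share the C57 nuclear genome, the depot, the diet and the age range, and differ in the mtDNA. Sequencing runs were also unevenly spread over the groups, as given below. The 7 high-fat-diet libraries of the same depot with a C3H nucleus (4 C3Hn:C3Hmt, strain C3H/HeN, and 3 C3Hn:C57mt) entered the model to estimate the spread. The labels do not state the sex of the mice. Each library was taken as 1 animal, since the library names carry different animal numbers.

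Mitochondrial DNA encodes a small set of respiratory chain subunits together with the rRNAs and tRNAs needed to translate them, and all other mitochondrial proteins come from the nucleus. Complexes I, III, IV and V are therefore built from subunits of both genomes, while complex II is encoded by the nucleus alone. Epididymal fat is a visceral depot of lipid-storing adipocytes, and on a high-fat diet it enlarges and gathers macrophages, some of which divide in place. An exchange of mtDNA could in principle be read in the mtDNA transcripts themselves, in their nuclear partners, or in the programmes of the adipocytes and immune cells of the depot.

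The 7 libraries held 16.4 to 22.7 M gene-assigned expected counts, and levels are given as CPM, counts scaled to a fixed library size after TMM normalisation. The nuclear labels were checked first. H2-Ea, an MHC class II chain that C57 mice do not express, reached at most 0.124 CPM in the 4 wild-type libraries and 0.112 CPM in the 3 C57n:C3Hmt libraries, against 77.0 to 384 CPM in the 7 libraries with a C3H nucleus. Over 26 genes that stood at least 8-fold apart between every C57n:C57mt library and every library with a C3H nucleus, all 3 C57n:C3Hmt libraries were on the C57 side for 26. The mtDNA haplotype was not checked here, because the tables hold no sequence. The tissue label went with its markers: the summed level of 10 adipocyte markers was 50390 to 65924 CPM in the wild type and 60329 to 73980 CPM in C57n:C3Hmt. Summed epididymal epithelium markers (7 genes) stayed at 1.31 to 5.61 CPM and 1.34 to 22.6 CPM, with the highest value in C57n:C3Hmt replicate 2. Runs were unbalanced. Wild-type replicates 1 to 3 were sequenced in run H31243, and replicate 4 and all 3 C57n:C3Hmt libraries in run H31244. The comparison was therefore also fitted with run as a covariate.

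One library stood apart from its group. C57n:C3Hmt replicate 3 lay nearer to all 4 wild-type libraries (distances of 2.43, 2.52, 2.78 and 2.85, as the root mean square log2 difference over the 500 most different genes of a pair) than to C57n:C3Hmt replicate 1 (2.99) or replicate 2 (3.303). C57n:C3Hmt replicates 1 and 2 were 2.56 apart. Between the genotypes the 12 distances ran from 2.43 to 3.53 (median 2.92), and within the wild type the 6 distances ran from 2.46 to 3.04 (median 2.74), so the ranges overlapped. Values with and without replicate 3 are given where results turn on it.

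**Figure D1:**
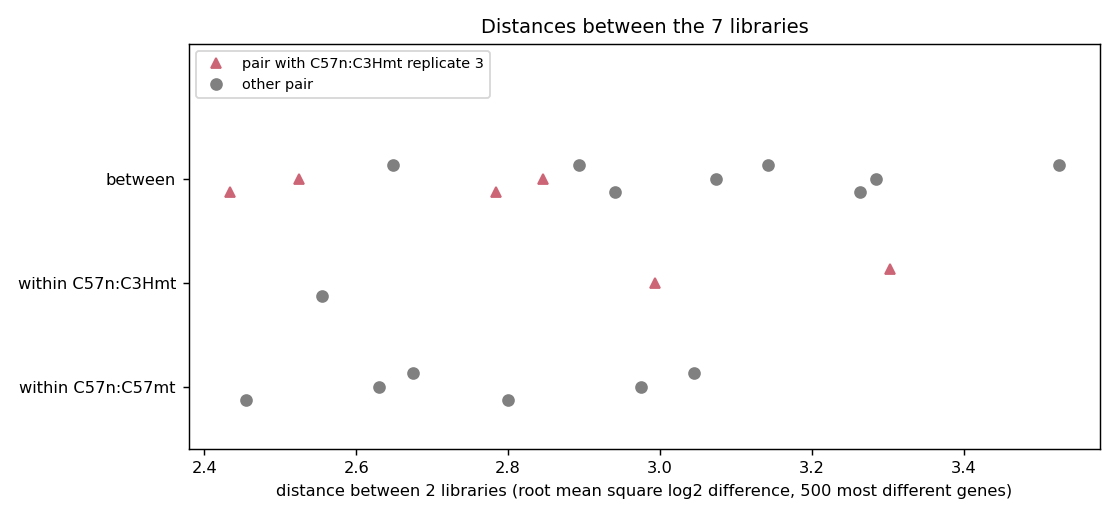
Distances between pairs of the 7 libraries (x axis, root mean square log2 difference over the 500 most different genes of each pair), grouped into pairs within C57n:C57mt, within C57n:C3Hmt and between the genotypes. Triangles mark the 6 pairs with C57n:C3Hmt replicate 3, which sit at 2.43 to 2.85 against wild-type libraries and at 2.99 and 3.303 against their own group.

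Across 15664 genes tested, edgeR's quasi-likelihood test called 0 at an adjusted p under 0.05 (0% called), and the smallest adjusted p was 0.861. At an unadjusted p under 0.05 there were 818 genes (5.22%), 397 higher (2.53%) and 421 lower (2.69%) in C57n:C3Hmt. limma-voom also called 0. DESeq2 called 9 of 16256 genes (0.0554%), 2 higher and 7 lower. The 7 libraries did not overlap between the genotypes for 1116 genes (7.12%), 534 higher (3.41%) and 582 lower (3.72%). The median log2 fold change over all genes was 0.00 and the median size was 0.17, with 49.3% of genes above 0 and 50.7% below. With run as a covariate edgeR called 0 genes (smallest adjusted p 0.337), and within run H31244, with 1 wild-type library against 3, it called 0 (smallest adjusted p 0.238). Without C57n:C3Hmt replicate 3 it called 12, described at the end, and without any other single library it called 0.

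The data also set a bound on each change. For the 15592 genes with counts in both groups, a 95% confidence interval of the fold change was taken from the same fit. The whole interval lay within 2-fold in either direction for 10077 genes (64.6%), within 1.5-fold for 5419 (34.8%) and within 4-fold for 14060 (90.2%). The median half-width was 0.55 on the log2 scale, a factor of 1.47. Precision followed the level: 4.05% of the 1825 genes under 1 CPM had an interval within 2-fold, 44.2% of 4464 genes at 1 to 10 CPM, 85.7% of 7515 genes at 10 to 100 CPM and 89.99% of 1678 genes at 100 to 1000 CPM. Among the 110 genes over 1000 CPM the share was 72.7%, with a median half-width factor of 1.46 against 1.35 in the class below. That top class holds Scd1, Fasn, Lep, Cfd and the mtDNA transcripts. With run as a covariate the count within 2-fold was 8439, and within run H31244 it was 5899. These are intervals of single genes, not a joint bound over all of them.

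**Figure D2:**
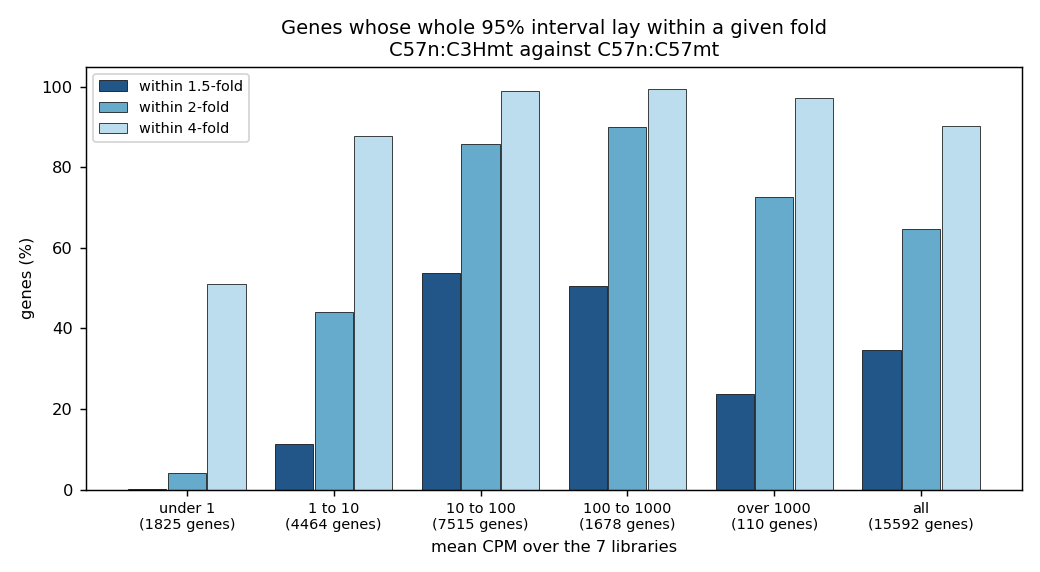
Percentage of genes (y axis) whose whole 95% interval for C57n:C3Hmt against C57n:C57mt lay within 1.5-fold, 2-fold or 4-fold (bars), by mean CPM over the 7 libraries (x axis, with the number of genes). Shares within 2-fold climb from 4.05% under 1 CPM to 89.99% at 100 to 1000 CPM and stand at 72.7% over 1000 CPM.

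For the respiratory chain itself no member was called, and most intervals lay within 2-fold in the fit without run. Intervals of genes and lists here and below come from that fit unless stated. Of the 13 mtDNA-encoded protein genes, 3 were matched in the table: mt-Nd4 (a complex I subunit, mtDNA positions 10167 to 11544 in NCBIM37, plus strand), Cox2 (a complex IV subunit, listed apart from the cyclooxygenase gene Ptgs2) and Atpase6 (a complex V subunit). mt-Nd4 was at 10793.5, 8782, 8099 and 5573 CPM in wild-type replicates 1 to 4 and at 12797, 10452 and 9987 CPM in C57n:C3Hmt replicates 1 to 3. The groups overlapped, and wild-type replicate 4 was the lowest library. The log2 fold change was 0.41 ± 0.23 (SE; 95% interval -0.09 to 0.92). Cox2 ran from 5475 to 8800 CPM in the wild type and from 8347 to 9460 CPM in C57n:C3Hmt (0.23 ± 0.26, interval -0.33 to 0.79). Atpase6 gave 0.28 ± 0.27 (interval -0.31 to 0.86). In the fit without run all 3 intervals lay within 2-fold and 0 within 1.5-fold. With run as a covariate the estimates were larger. They were 0.69 for mt-Nd4 (edgeR unadjusted p 0.029, adjusted p 0.866), 0.60 for Atpase6 and 0.51 for Cox2. The 2-fold bound is therefore not claimed for that fit. The median of the 3 log2 fold changes was 0.28, 0.60 with run as a covariate and 0.87 within run H31244, where the wild type is replicate 4 alone. Without that replicate it was 0.12.

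Nuclear subunits of complex I numbered 36 measured genes, of which 0 were called (0 with an unadjusted p under 0.05), 25 were above 0 and 11 below, with a median log2 fold change of 0.04. That median was 0.22 with run as a covariate and 0.27 within run H31244, where 36 of 36 were above 0, and it was -0.02 without wild-type replicate 4. Without run in the model the 2-fold bound held for 36 of 36. The highest upper bound was that of Ndufs7, a catalytic subunit, at 43.3, 60.4, 44.1 and 46.9 CPM in the wild type and 65.5, 60.7 and 61.7 CPM in C57n:C3Hmt. Its groups did not overlap, although wild-type replicate 2 came close to them, and its log2 fold change was 0.36 ± 0.20 (interval -0.07 to 0.80). For complexes II to V the bound, again without run, held for 40 of 40 nuclear subunits (median 0.03, and 0.20 with run as a covariate). With run as a covariate Ndufs7 was at 0.47 and Cox8a, a complex IV subunit, at 0.49. The bound is not claimed for that fit. Cox4i1, a complex IV subunit, gave -0.03 ± 0.26 (interval -0.59 to 0.53), and Sdha, the flavoprotein of complex II, gave 0.31 ± 0.16 (interval -0.04 to 0.67). Mitochondrial ribosomal proteins, which build the machinery that translates mtDNA messages, had a median of 0.07 over 75 genes, and 74 lay within 2-fold. The exception was Mrpl37, at 0.15 ± 0.50.

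Genes that copy, transcribe and regulate mtDNA had 0 calls. Tfam, which packages mtDNA and starts its transcription, was at 26.95, 29.8, 29.4 and 24.3 CPM in the wild type and at 29.4, 30.1 and 26.2 CPM in C57n:C3Hmt. The groups overlapped fully, and the interval of the log2 fold change was -0.21 to 0.31. Esrra, a nuclear receptor that drives oxidative genes, was at 21.8, 21.4, 26.5 and 25.97 CPM against 33.3, 34.3 and 32.4 CPM without overlap (0.48 ± 0.15, interval 0.16 to 0.80, adjusted p 0.861 by edgeR). Of 30 genes in this list 27 were above 0 and 24 lay within 2-fold (median 0.11). Ppargc1a, a coactivator of mitochondrial biogenesis, was too low to bound, at 0.742 to 1.87 CPM against 1.06 to 3.74 CPM (interval -0.60 to 3.08). Nnt, a mitochondrial transhydrogenase, gave 0.19 ± 0.19 (interval -0.22 to 0.60). For the TCA cycle 18 of 18 genes lay within 2-fold, 17 were above 0, and the median was 0.19 (0.12 without C57n:C3Hmt replicate 1). For fatty acid oxidation 21 of 23 lay within 2-fold (median 0.08), all but Pdk4 and Ppara.

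**Figure D3:**
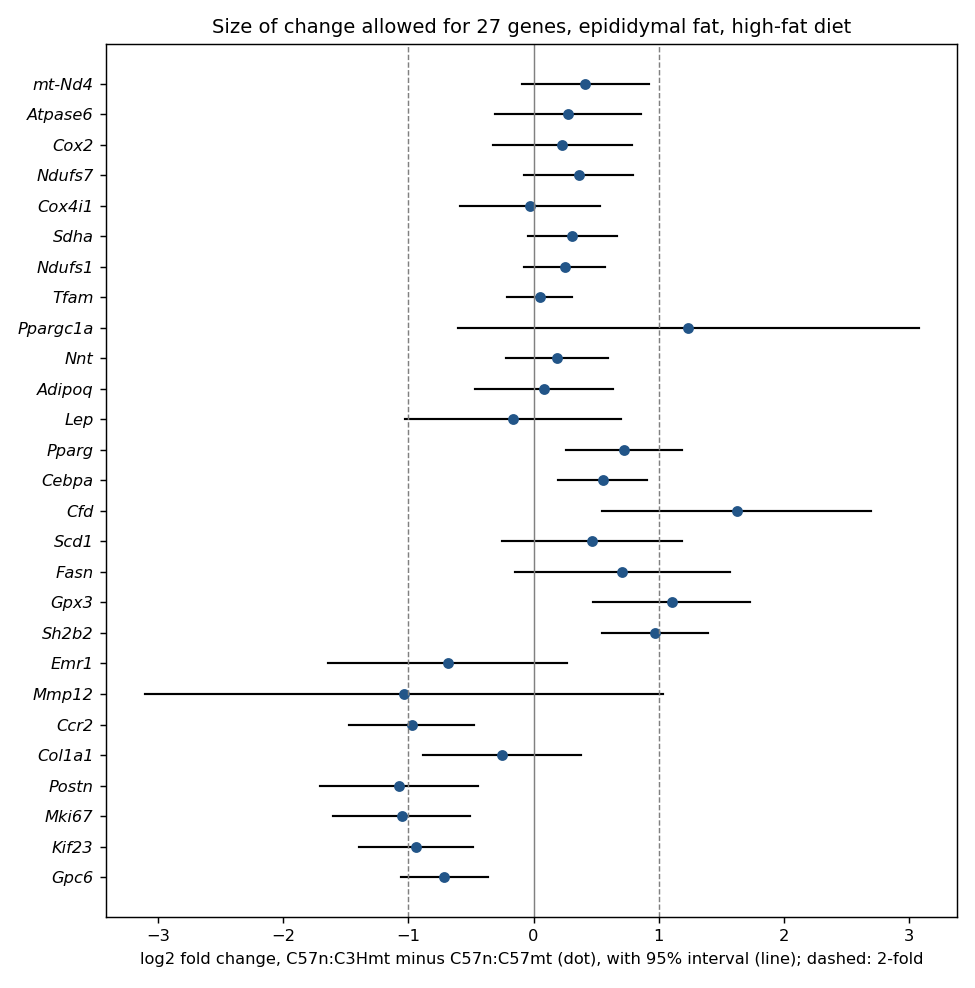
Log2 fold change of C57n:C3Hmt minus C57n:C57mt (x axis, dots) with its 95% interval (lines) for mitochondrial, adipocyte, macrophage and cell cycle genes (y axis), with dashed lines at 2-fold. Intervals of Tfam (-0.21 to 0.31), Nnt (-0.22 to 0.60) and Cox4i1 (-0.59 to 0.53) lie inside the dashed lines, and that of Mmp12 (-3.11 to 1.03) spans both.

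Among the 10 higher genes with the smallest p (mean of at least 1 CPM), Sh2b2 came first. This adaptor protein binds the activated insulin receptor, and its gene lies on chromosome 5 at 136694019 to 136720773 (minus strand, NCBIM37). Sh2b2 was at 21.5, 17.1, 22.5 and 21.5 CPM in the wild type and at 41.9, 42.1 and 37.3 CPM in C57n:C3Hmt. All 3 C57n:C3Hmt libraries, replicate 3 included, lay well above all 4 wild-type libraries, and wild-type replicate 4, from the shared run, lay with the other wild-type libraries. The log2 fold change was 0.97 ± 0.20 (interval 0.54 to 1.39), with an adjusted p of 0.861 by edgeR and 0.0135 by DESeq2. It was 1.04 with run as a covariate and 1.02 without replicate 3. With a C3H nucleus the same mtDNA contrast gave 0.07 ± 0.20 for Sh2b2, and on chow with the C57 nucleus 0.05 ± 0.47. The interaction with the nuclear genome was 0.90 ± 0.28 (edgeR adjusted p 0.598). That with diet was 0.92 ± 0.70 (edgeR adjusted p 0.876), so neither difference was called.

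Other genes of this group split by library. Hexim1, an inhibitor of the elongation factor P-TEFb, was at 38.1 to 45.7 CPM in the wild type and at 73.1, 77.1 and 48.7 CPM (log2 fold change 0.64 ± 0.15). Bmper, a secreted modulator of BMP signalling, was at 26.1, 15.9, 18.0 and 17.2 CPM against 55.3, 64.5 and 19.8 CPM (1.27 ± 0.31), and AU018778 was at 27.8 to 55.5 CPM against 243, 124 and 49.9 CPM. In each of the 3, C57n:C3Hmt replicate 3 was the library nearest to the wild type, and for Bmper and AU018778 it lay inside the wild-type range. The groups did not overlap for Pcbp4, AK161599, Uck1 and Mif4gd, with log2 fold changes of 0.42 to 0.83, nor for AK152097 (0.80), whose replicate 3 (28.0 CPM) lay just above the highest wild-type library (27.9 CPM). BC035947 overlapped the wild type in replicate 3.

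Lower genes were led by cell division. Of the 10 lower genes with the smallest p, Kif23, Nek2, Cenpf, Cep55, Mki67 and Prc1 act in mitosis or cytokinesis or mark dividing cells. Mki67, the proliferation antigen Ki-67 (chromosome 7, 142881471 to 142908062, minus strand), was at 24.3, 17.2, 26.99 and 26.7 CPM in the wild type and at 10.2, 8.47 and 15.7 CPM in C57n:C3Hmt. The groups did not overlap, and replicate 3 was the highest of its group. The log2 fold change was -1.05 ± 0.25 (interval -1.60 to -0.51), and the adjusted p was 0.861 by edgeR and 0.0794 by DESeq2. Prc1, which bundles the midzone microtubules, was at 10.3 to 13.1 CPM against 3.98, 3.32 and 7.22 CPM (-1.22 ± 0.30). Kif23, the mitotic kinesin of the spindle midzone, was at 7.27, 7.08, 7.35 and 8.05 CPM against 3.38, 3.75 and 4.48 CPM (-0.94 ± 0.21). Nek2, a centrosomal kinase, was at 5.34 to 6.03 CPM against 2.47, 1.41 and 3.58 CPM (-1.15 ± 0.26). The adjusted p of Nek2 was 0.861 by edgeR and 0.0150 by DESeq2.

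Within a list of 24 cell cycle genes, 0 were called and 24 of 24 were below 0. An unadjusted p under 0.05 was found for 17 in the lower direction, against 2.69% of all genes, and for 0 in the higher. The groups did not overlap for 10, all lower, against 3.72% of all genes. The median log2 fold change was -0.92 against 0.00 over all genes. It was -1.04 with run as a covariate, -0.98 within run H31244 and -0.80 without wild-type replicate 4. The members' median in single libraries, relative to the wild-type mean, was -1.06, -1.18 and -0.32 in C57n:C3Hmt replicates 1 to 3 and -0.21 to 0.20 in the wild type. Without replicate 3 the list's median was -1.21. In that fit 22 members were lower at an unadjusted p under 0.05, against 6.51% of all genes. Without replicate 1 the median was -0.73, with 8 members lower by that measure, against 1.19% of all genes. Such a shift in bulk tissue cannot tell fewer dividing cells from less of each transcript per cell. Genes of the cell cycle vary together as dividing cells come and go, so the members are not independent of each other.

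Macrophage genes were lowest in the same libraries, C57n:C3Hmt replicates 1 and 2. Ccr2, the chemokine receptor of recruited monocytes (chromosome 9, 124016689 to 124028296, plus strand), was at 93.7, 98.3, 121 and 130 CPM in the wild type and at 51.8, 50.3 and 67.1 CPM in C57n:C3Hmt, without overlap. Its log2 fold change was -0.97 ± 0.23 (interval -1.47 to -0.48), with an adjusted p of 0.861 by edgeR and 0.0550 by DESeq2. Mmp12, a macrophage elastase, was at 181, 242, 142 and 481 CPM against 22.1, 24.3 and 336 CPM. Replicates 1 and 2 lay far below every wild-type library and replicate 3 inside the wild-type range, so the log2 fold change of -1.04 had an interval of -3.11 to 1.03. Without replicate 3 it was -3.50. Emr1 (F4/80) was at 135, 140, 140 and 222 CPM against 85.3, 72.8 and 139 CPM (-0.68 ± 0.44), and Itgax (CD11c) at 36.9 to 118 CPM against 10.2, 11.8 and 84.5 CPM. Csf1r, the CSF1 receptor, was at 242 to 344 CPM against 209, 219 and 261 CPM (-0.25 ± 0.28).

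Of 32 macrophage genes 0 were called, 30 were below 0 and 2 above, and the median was -0.70. An unadjusted p under 0.05 was found for 2 (Ccr2 and Cd5l, both lower), against 2.69% of all genes. With run as a covariate the median was -0.98. By library it was -1.47, -1.24 and 0.02 for C57n:C3Hmt replicates 1 to 3, and -0.30 to 0.52 in the wild type, where replicate 4 was highest. Without replicate 3 the median was -1.55 and without wild-type replicate 4 it was -0.45, so the size rested on these libraries while 30 or 31 of 32 genes stayed below 0. The summed level of 5 defining markers (Emr1, Csf1r, Cd68, Itgam, Mpeg1), all detected, was 800 to 1367 CPM in the wild type and 481, 476 and 924 CPM in C57n:C3Hmt. Intervals were wide: 4 of 32 genes lay within 2-fold and 16 within 4-fold. Whether the cell cycle values follow from the number of macrophages was not tested.

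MHC class II genes, the antigen-presenting molecules of macrophages, dendritic cells and B cells, had 10 of 11 members below 0 (median -0.66). Cd74, the invariant chain, was at 1872, 1955, 1516 and 2395 CPM against 964, 895 and 1878 CPM. As for Mmp12, replicates 1 and 2 were below every wild-type library and replicate 3 was not. Lymphocyte genes had a median of -0.37 over 25 genes and interferon-stimulated genes -0.23 over 26, with 0 called in each. With run as a covariate those medians were -0.05 and 0.18, so the interferon list had the other sign. Without wild-type replicate 1 the lymphocyte median was -0.09, and without C57n:C3Hmt replicate 1 it was -0.61.

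Extracellular matrix genes had 30 of 32 members below 0 (median -0.34), with 0 called. An unadjusted p under 0.05 was found for 6, all lower, against 2.69% of all genes. Postn, a matricellular protein of remodelling tissue, was at 480, 368, 582 and 516 CPM in the wild type and at 171, 168 and 354 CPM in C57n:C3Hmt. The groups did not overlap, with replicate 3 just below the lowest wild-type library (log2 fold change -1.07 ± 0.29, interval -1.71 to -0.44). Fn1, fibronectin, was at 1369 to 1782 CPM against 1071, 1132 and 1040 CPM, where replicate 3 was the lowest library (-0.54 ± 0.24). Col1a1, the main fibrillar collagen chain, overlapped fully (-0.25 ± 0.29, interval -0.88 to 0.38). Outside the lists, Gpc6, a cell surface heparan sulphate proteoglycan (chromosome 14, 117324519 to 118378751, plus strand), was at 41.4, 30.1, 43.0 and 30.4 CPM against 23.3, 20.6 and 22.4 CPM. All 3 C57n:C3Hmt libraries were alike and lay below the wild type (-0.71 ± 0.16, adjusted p 0.861 by edgeR and 0.0470 by DESeq2).

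**Figure D4:**
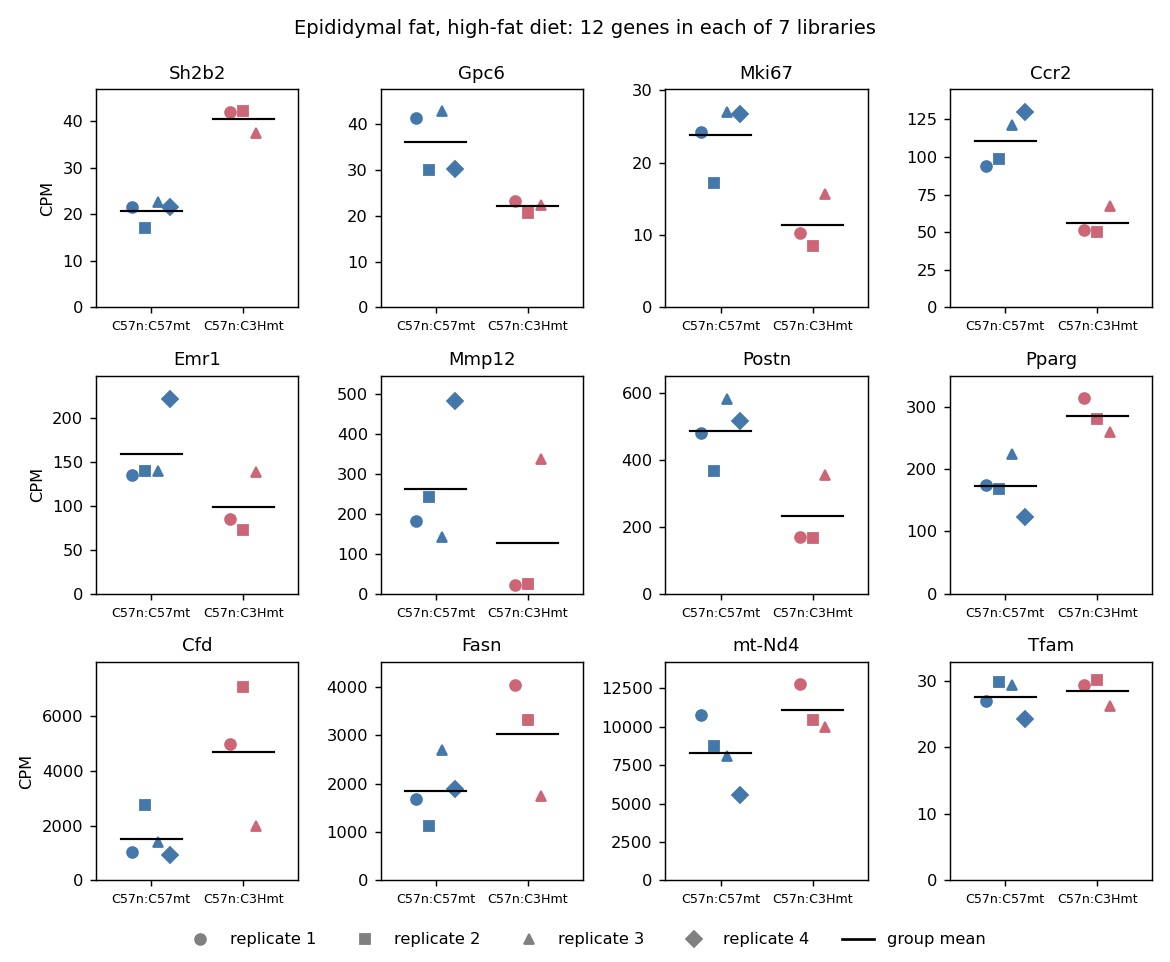
CPM (y axes, from 0) of genes named in the text in each of the 4 C57n:C57mt and 3 C57n:C3Hmt libraries (points, symbols by replicate) with group means (lines). Sh2b2 (37.3 to 42.1 against 17.1 to 22.5 CPM) and Gpc6 separate all libraries, while for Mmp12, Emr1, Cfd and Fasn replicate 3 of C57n:C3Hmt (red triangle) lies within the wild-type range.

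Adipocyte programmes leaned the other way, again with 0 genes called. Pparg, the master regulator of adipocytes (chromosome 6, 115311239 to 115440419, plus strand), was at 174, 168, 224 and 123 CPM in the wild type and at 314, 279 and 260 CPM in C57n:C3Hmt. The groups did not overlap (log2 fold change 0.72 ± 0.21, interval 0.26 to 1.19, adjusted p 0.861 by edgeR and 0.271 by DESeq2). With run as a covariate it was 1.16 with an adjusted p of 0.337 by edgeR. Cebpa, its partner factor, was at 426, 420, 420 and 320 CPM against 650, 633 and 461 CPM (0.55 ± 0.17). Plin, the lipid droplet coat protein perilipin, was at 678 to 791 CPM against 1183, 1280 and 901 CPM (0.60 ± 0.22), and Slc2a4, the insulin-responsive glucose transporter, at 118 to 131 CPM against 233, 187 and 165 CPM (0.66 ± 0.31). None of Cebpa, Plin and Slc2a4 overlapped. In the list of 18 adipocyte identity genes 5 had an unadjusted p under 0.05, all higher, against 2.53% of all genes. Of the 18, 12 were above 0 and 6 below, and the median was 0.20. The members below 0 included Fabp5, a fatty acid binding protein, at 320 to 335 CPM against 261, 179 and 302 CPM without overlap (-0.40 ± 0.37). Aqp7, the glycerol channel, was at 82.8 to 192 CPM against 118, 92.5 and 121 CPM (-0.38 ± 0.26), and Fabp4, Cd36, Cebpb and Slc27a1 were between -0.09 and -0.01. The list's median was 0.13 without C57n:C3Hmt replicate 1 and 0.11 without wild-type replicate 4.

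Lipogenic enzymes were highest in C57n:C3Hmt replicates 1 and 2. Acaca, which makes malonyl-CoA, was at 206, 182, 353 and 221 CPM in the wild type and at 642, 588 and 196 CPM in C57n:C3Hmt. Fasn, the fatty acid synthase, was at 1675, 1133, 2704 and 1892 CPM against 4032, 3320 and 1740 CPM. For both genes replicate 3 sat inside the wild-type range, and the log2 fold changes were 0.98 ± 0.41 and 0.71 ± 0.40. Scd1, the stearoyl-CoA desaturase, had an interval of -0.25 to 1.19. Of 18 genes of de novo lipogenesis 15 were above 0 (median 0.46). At an unadjusted p under 0.05, 5 were higher and 1 lower, against 2.53% and 2.69% of all genes. The list's median by library was 0.65, 0.72 and 0.00 in C57n:C3Hmt replicates 1 to 3 and -0.27 to 0.44 in the wild type. For triglyceride storage and lipolysis 20 of 25 genes were above 0 (median 0.31), with 4 higher at an unadjusted p under 0.05, against 2.53% of all genes. That median was 0.13 without C57n:C3Hmt replicate 1, 0.18 without replicate 2 and 0.17 without wild-type replicate 3. Among 20 insulin signalling genes the median was 0.22 and 4 were higher by the same measure, against 2.53% of all genes. Grb14, an inhibitor of the insulin receptor, led them at 23.4 to 27.3 CPM against 77.4, 41.6 and 27.9 CPM. Without C57n:C3Hmt replicate 1 the insulin list's median was 0.08, and without replicate 3 it was 0.33. The lipogenesis median was 0.30 without replicate 2.

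Secreted products of fat gave values in both directions, with 0 called. Cfd, the adipocyte protease adipsin, was at 1031, 2745, 1390 and 913 CPM in the wild type and at 4980, 7083 and 2002 CPM in C57n:C3Hmt, with overlap (1.63 ± 0.50, interval 0.55 to 2.70). Lep, which encodes leptin, was at 3206, 2433, 5167 and 4946 CPM against 2871, 2090 and 5574 CPM, and Adipoq, which encodes adiponectin, at 3593 to 5200 CPM against 3800 to 5233 CPM. Their intervals were -1.03 to 0.70 and -0.46 to 0.64, so a 2-fold difference in Adipoq lay outside the interval in both directions. Mest and Sfrp5, which mark expanding fat, were at 880 to 1251 and 230 to 419 CPM in the wild type. In C57n:C3Hmt replicates 1 and 2 Mest was at 245 and 416 CPM and Sfrp5 at 138 and 79.5 CPM, and in replicate 3 they were at 1383 and 485 CPM, above every wild-type library. Saa3, an acute-phase protein, was at 43.9 to 74.1 CPM against 3.86, 1.78 and 56.8 CPM. Ucp1, the uncoupling protein of thermogenic fat, had at most 0.0621 CPM in any of the 7 libraries.

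**Figure D5:**
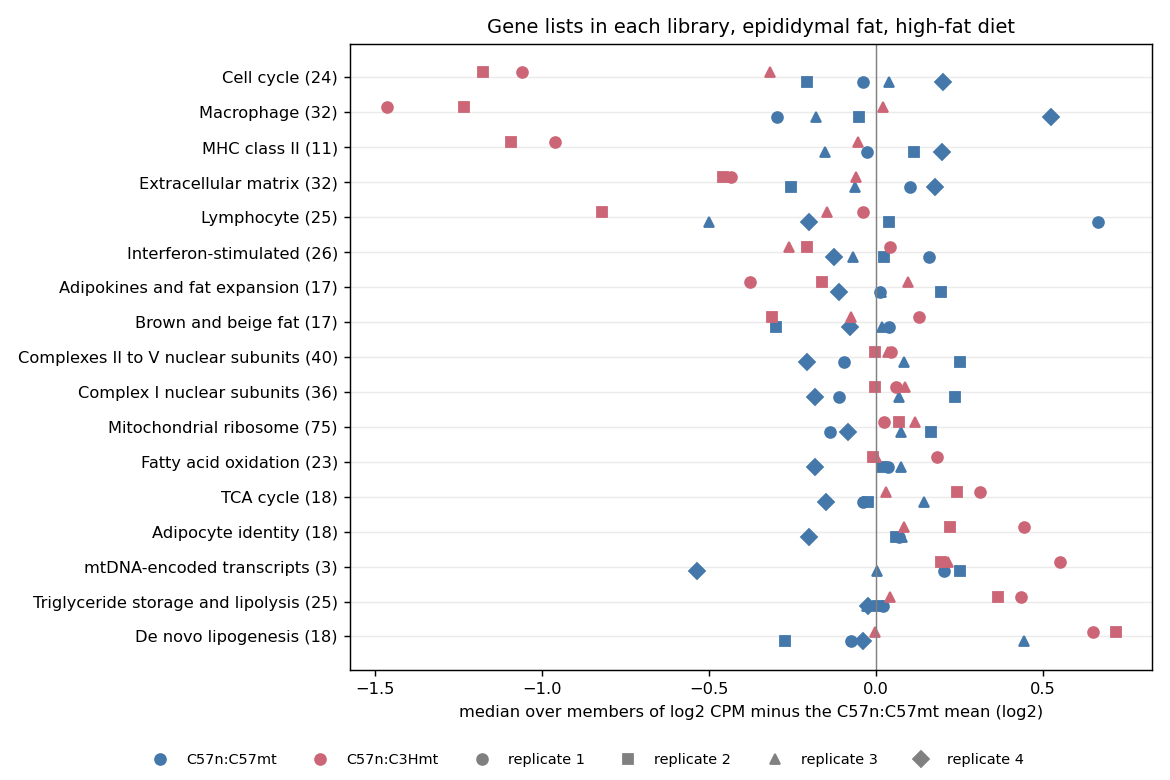
Median over the members of each gene list (rows, number of genes in brackets) of log2 CPM minus the C57n:C57mt mean (x axis), for each library. Cell cycle genes stand at -1.06, -1.18 and -0.32 and macrophage genes at -1.47, -1.24 and 0.02 in C57n:C3Hmt replicates 1 to 3, while both respiratory chain lists lie near 0 in all 3.

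Other groups showed smaller or mixed values. Gpx3, a secreted glutathione peroxidase, was at 278 to 435 CPM in the wild type and at 577, 1139.5 and 394 CPM in C57n:C3Hmt (1.10 ± 0.29), and Gsta4, which conjugates lipid aldehydes, at 7.99 to 17.4 CPM against 32.1, 28.1 and 11.7 CPM (0.98 ± 0.34). Both overlapped through replicate 3. In the antioxidant list 4 of 31 genes had an unadjusted p under 0.05, all higher, against 2.53% of all genes. That list's median was 0.04, and 24 of 31 lay within 2-fold. Circadian clock genes were above 0 in 16 of 19 cases (median 0.18, and 0.34 without C57n:C3Hmt replicate 3). Brown and beige fat genes had a median of 0.01 over 17 genes. That median was -0.17 without C57n:C3Hmt replicate 1, 0.21 without replicate 2 and 0.36 with run as a covariate. Cidea, a lipid droplet protein of that list, was at 1.37 to 2.42 CPM against 7.78, 2.52 and 3.02 CPM, without overlap (1.17 ± 0.43). Without C57n:C3Hmt replicate 1 the log2 fold change of Cidea was 0.49. Endothelial and mesothelial genes had medians of 0.03 and -0.01.

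The widest estimated differences were in transcripts of low level. Among genes with a mean of at least 1 CPM, the interval lay wholly beyond 2-fold for 2 higher genes (Cyp2f2 and Chk2) and 5 lower genes (Mup2, Mup3, Serpina1c, Bhmt and Gc), named after their values were seen. Mup2, a major urinary protein, was at 13.2, 5.10, 10.8 and 44.6 CPM in the wild type and at 0.964, 1.17 and 0.784 CPM in C57n:C3Hmt (log2 fold change -4.24 ± 0.96, adjusted p 0.861 by edgeR and 0.000177 by DESeq2). All 5 lower genes are known best from the liver and all 5 were highest in wild-type replicate 4. Alb, the serum albumin gene, was also highest there, at 51.8 CPM against 12.8 to 24.4 CPM in the other 6 libraries, while Apoa1 and Ttr were at 6.33 and 4.62 CPM against at most 1.12 and 0.869 CPM. These overlapped between the genotypes. The 5 lower genes did not, since every wild-type library lay above every C57n:C3Hmt library. The same held for Apoa2, Apoc3 and Ahsg (1.68, 1.26, 2.01 and 5.71 CPM against 0.362, 0.307 and 0.616 CPM). Trf went the other way, lowest in wild-type replicate 4 (2278 CPM against 2492 to 3685 CPM). Without wild-type replicate 4 the interval of Mup2 alone among the 7 lay wholly beyond 2-fold, and the bounds nearest to 0 were -0.64 for Mup3, -0.46 for Serpina1c, -0.09 for Bhmt, 0.81 for Cyp2f2 and 0.45 for Chk2. The log2 fold change of Mup2 was then -3.32 (interval -5.08 to -1.55) and that of Gc was -4.63 (interval -9.50 to 0.24). The part of liver transcripts in these values was not tested. Mup2, Mup3 and Serpina1c belong to families of near-identical genes, so their counts are uncertain. Cyp2f2, a cytochrome P450, was at 1.54 to 1.65 CPM in the wild type and at 17.2, 17.0 and 1.23 CPM in C57n:C3Hmt. Chk2 was at 0, 0.933, 0 and 0 CPM against 0, 2.64 and 8.62 CPM, so for each of the higher genes 1 C57n:C3Hmt library was no higher than the wild type.

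DESeq2's 9 calls were Pira1, Mup2, mKIAA0744, A730098D12Rik, Sh2b2, Nek2, Zfp202, Cenpf and Gpc6. For 4 of them 1 genotype had no counts at all. Pira1, a paired immunoglobulin-like receptor of a multigene family, had 0, 54, 25 and 1 counts in the wild type and 0 in each C57n:C3Hmt library. mKIAA0744 had 0 counts in the wild type and 19, 0 and 30 counts in C57n:C3Hmt. In both genes at least 1 library of the higher group was also at 0, and edgeR's adjusted p was 0.997 for Pira1 and 0.861 for mKIAA0744.

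The reverse exchange gives a view of the same mtDNA contrast on the C3H nucleus, C3Hn:C3Hmt minus C3Hn:C57mt, from 7 other libraries of this depot and diet. There edgeR called 262 of 15664 genes (1.67%), 169 higher and 93 lower with C3H mtDNA. That count was 73 with run as a covariate and 69 without C3Hn:C3Hmt replicate 1, a library with 8958 counts of the epididymal gene Crisp1, against at most 2 in any other. In the fit of all 29 libraries of the depot it was 2, and DESeq2 called 1320. Cell cycle genes were below 0 in 24 of 24 cases on the C3H nucleus too, with a median of -1.06 and 7 called lower, Mki67 among them (log2 fold change -1.61). Kif23, outside that list, was also called lower there (-1.12). Without the Crisp1 library the median was -0.90 and 1 was called. Macrophage genes had a median of -0.84 there, with 1 of 32 called, and -0.59 without that library, with 0 called. Complex I subunits had a median of 0.66 on the C3H nucleus, above 0 in 36 of 36, against 0.04 on the C57 nucleus. With run as a covariate the medians were 0.64 on the C3H nucleus and 0.22 on the C57 nucleus. Without the Crisp1 library the median on the C3H nucleus was 0.73. The interaction of mtDNA with the nuclear genome was tested for every gene: edgeR called 0 of 15664, with 1138 (7.27%) at an unadjusted p under 0.05, and DESeq2 called 67. Among complex I subunits 2 of 36 were at an unadjusted p under 0.05 in that test, among cell cycle genes 0 of 24 and among macrophage genes 2 of 32.

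Diet was examined in the same way on the C57 nucleus. In chow-fed mice edgeR called 0 of 17687 genes for C57n:C3Hmt minus C57n:C57mt in this depot, with 2699 (15.3%) at an unadjusted p under 0.05. The interaction of mtDNA with diet called 0, with 1271 (7.19%) at an unadjusted p under 0.05, and DESeq2 called 52. All chow libraries came from run H22786, so diet and run cannot be told apart. The epididymal epithelium list had a chow median of 2.94, with 5 of 6 genes above 0. On chow 0 of these 6 genes were called, and the part of epithelial transcripts in the chow values was not tested. List medians on chow were -0.56 for cell cycle, -0.24 for macrophage, 0.85 for de novo lipogenesis and 0.06 for complex I genes, with the same sign as on the high-fat diet. Others had the opposite sign on chow: adipocyte identity -0.24 (4 genes above 0 and 14 below), triglyceride storage -0.25, insulin signalling -0.13 and interferon-stimulated genes 0.40. For scale, the comparison of the wild types, C57n:C57mt minus C3Hn:C3Hmt, called 834 genes (5.32%) in the same fit of 14 libraries. That comparison shares the 4 C57n:C57mt libraries.

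Leaving out C57n:C3Hmt replicate 3 raised the number of edgeR calls from 0 to 12, with 10.7% of genes at an unadjusted p under 0.05. Replicate 3 was singled out by these same values, as the library nearest to the other genotype. Leaving it out widens the differences by that choice, so the 12 calls are no separate evidence of a difference. The genes, named after their values were seen, were Bmper, AK152097, Sfxn1, Hexim1, AU018778 and Angpt1 on the higher side and Pde7a, Rab29, Trdn, Duox1, AK036470 and Tmem132a on the lower. Pde7a, a cyclic AMP phosphodiesterase, was at 53.4 to 70.6 CPM in the wild type and at 26.6, 23.5 and 66.1 CPM in C57n:C3Hmt, and Tmem132a was at 23.0 to 35.1 CPM against 12.8, 10.1 and 31.6 CPM. Trdn, which encodes triadin, was at 2.10 to 4.28 CPM against 0.181, 0.246 and 6.10 CPM. In all 3, replicates 1 and 2 were also below the 7 libraries with a C3H nucleus, whose lowest values were 28.8 CPM for Pde7a, 20.0 CPM for Tmem132a and 0.840 CPM for Trdn, and replicate 3 was within or above the wild-type range. Rab29 had the same pattern, at 0, 0 and 6.10 CPM in C57n:C3Hmt replicates 1 to 3. It was at 3.71 to 13.2 CPM in the wild type and 3.07 to 13.4 CPM with a C3H nucleus. The check of the nuclear labels used genes that separate C57 from C3H nuclei, so it does not cover such genes. Sfxn1, a mitochondrial serine transporter, was at 84.1 to 112 CPM against 196, 224 and 104.7 CPM. Without replicate 1 or without replicate 2, edgeR called 0 genes, with smallest adjusted p values of 1 and 0.0705.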

How the data were processed

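RNA-seq libraries of epididymal white fat (Illumina HiSeq, per the labels) were analysed from a gene table of expected counts deposited by the authors. RSEM and build mm9 are named in the submitters' processing notes, with DESeq2 1.10.1. Reads were mapped with a proprietary algorithm of the sequencing provider, per the labels, and the sources used here do not give the RSEM version or the annotation. Per the file headers of the deposited quality tables, percent, fraction and count values describe each library: 87.2 to 90.4 percent of reads mapped to the transcriptome, 0.45 to 2.13 percent to ribosomal RNA, 15950 to 16337 genes were detected, insert means were 146 to 161 bases, and the fraction of bases differing from the reference was 0.0073 to 0.0077 in wild-type replicates 1 to 3 and 0.0041 to 0.0047 in the other 4 libraries.

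Expected counts (68.1% whole) were rounded, filtered with filterByExpr (count 10, total 15, 70% of samples), normalised by TMM and fitted with edgeR 4.0.16 (R 4.3.3) over 14 libraries with 1 mean per genotype, two-sided, with Benjamini-Hochberg adjustment over all genes and calls at 0.05. Intervals (95%) use the SE from the F statistic and t on the total degrees of freedom, and 72 genes with 0 counts in 1 group have none. limma 3.58.1 (voom) and DESeq2 1.42.0 were alternatives, beside other size factors, no filter, the 7 or all 29 libraries of the depot, run as a covariate or alone, each library left out and other fold bounds. CPM use TMM sizes. Totals for the 14 libraries were 15.7 to 23.9 M. The fitting code was tested on simulated data. The genes named are the 10 higher and 10 lower with the smallest p (at least 1 CPM on average), the 2 with the smallest p in each of the gene lists, the mtDNA transcripts and a set of single genes named whatever their values (among them Nnt, Lep, Adipoq, Tfam, Mmp12 and Col1a1), and the first 5 of the DESeq2 calls by p, the other 4 being named after their values were seen. Other list members are given as examples and were chosen with their values known. The members and lists were chosen with earlier results of these data known. P-values measure the spread between these libraries. Gene positions are from GENCODE vM1 on NCBIM37, the assembly of mm9. Gene lists not named in the report had 0 calls as well.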

Additional observations from a re-analysis of the deposited data

Results flagged for a closer look

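In 98 genes looked at, the highest or lowest of the 4 C57n:C57mt libraries stood apart from the other 3 (by Dixon's gap-to-range ratio at the 95% level) in 10. Chance gives this in about 1 of 20 groups. Genes with every wild-type library under 1 CPM were counted among the 98 but could not be flagged. Wild-type replicate 4 was low for Cebpa (320 CPM, next 420 CPM) and high for Emr1 (222 CPM, next 140 CPM) and Elovl3 (1.03 CPM, next 0.110 CPM). Wild-type replicate 3 was high for Scd1 (34852 CPM, next 21987 CPM), Nek2 (6.03 CPM), Cenpf (6.58 CPM) and Ppargc1a (1.87 CPM). The same replicate was high for the epithelial genes Tacstd1 (1.005 CPM), Ptgds (1.19 CPM) and Cuzd1 (2.19 CPM).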

How the results depend on the processing

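The count of 0 edgeR calls was also 0 with DESeq2-type size factors, without a filter, on the 7 libraries alone, on all 29 libraries of the depot, with run as a covariate, within run H31244, with limma-voom and at an adjusted p under 0.1. DESeq2 called 9. Leaving out 1 library at a time gave 0 to 12 calls, and without C57n:C3Hmt replicate 3 there were 12. Genes with an interval within 2-fold numbered 8523 to 9599 when 1 library was left out, 5899 within run H31244, and 5419 at a bound of 1.5-fold. DESeq2 called 67 genes for the interaction with the nuclear genome and 52 for that with diet, against 0 by edgeR in each. The comparison of the wild types called 439 genes in the 29-library fit against 834. Leaving out the Crisp1 library (10369 genes within 2-fold) and a Wald SE (10078) were chosen after seeing the data. Of 1465 values of 98 named genes under alternatives, 74 moved by over 1 SE and 24, in 11 genes, had the other sign. Of 256 list medians 39 had the other sign. No paired analysis was possible because the library names carry no replicate numbers shared between genotypes. Run goes with genotype, and 1 wild-type library from the shared run carries the within-run values. With 4 and 3 libraries, genes under 1 CPM are bounded loosely: 51.1% of them lay within 4-fold.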
